A study of Arabidopsis thaliana with 44 samples.

Results

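The invertase genes of Arabidopsis thaliana that code for cell-wall and vacuolar enzymes were followed across RNA-seq libraries of tpst-1, psyr1,2,3 and PSY5-treated plants. The group holds 8 of the 34262 gene rows in each library: 6 cell-wall invertase genes, CWINV1 (AT3G13790), CWINV2 (AT3G52600), CWINV3 (AT1G55120), CWINV4 (AT2G36190), CWINV5 (AT3G13784) and CWINV6 (AT5G11920), and 2 vacuolar invertase genes, AT1G62660 and VI2 (AT1G12240). The members were chosen by family name, with no expression threshold, after CWINV5 was seen to be low in PSY5-treated and in tpst/psyr1,2,3 roots against tpst-1 roots. The values of both root comparisons against tpst-1 are therefore given as a description, without a test.

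Invertases cleave sucrose into glucose and fructose. Cell-wall invertases act on sucrose that has left the cell, next to sucrose and hexose transporters, and vacuolar invertases act on stored sucrose and are known for their part in cell expansion in growing tissue. CWINV1 is known as the main extracellular invertase of the plant, while CWINV3 and CWINV6 are known to cleave fructans, polymers of fructose. The TPST gene encodes the enzyme that sulfates tyrosines of peptide hormones, PSY5 is one such sulfated peptide, and PSYR1, PSYR2 and PSYR3 are receptor kinases for peptides of this kind.

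The 44 libraries came from 7-day-old plants and form 13 groups. Roots were sampled from the tpst/psyr1,2,3 quadruple mutant, from tpst-1 given 1 uM PSY5 and from tpst-1, with 3 libraries each, so every root group carries a tpst mutation and no wild-type root was analysed here. Shoots were sampled, with 4 libraries each, from tpst/psyr1,2,3, psyr1,2,3, tpst-1 given 1 uM PSY5, tpst-1 and wild type. Seedlings were all tpst-1, with 3 libraries each at 0, 2, 6 and 24 h of 1 uM PSY5 and after 7 d of it. The 0 h group is the only untreated seedling group. PSY5 exposure and any other difference of the later groups from 0 h therefore cannot be told apart. The labels do not say how many plants were pooled or whether libraries of a group came from separate cultures, so p-values measure only the spread between these libraries, which may be technical. In bulk tissue, fewer cells of a type and less RNA per cell cannot be told apart.

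Assigned reads numbered 3206526 to 4133623 per root library, 8610277 to 16816553 per shoot library and 9878853 to 15401969 per seedling library. Low read values came in steps of about 1.00 in roots but of about 1.96 in shoots and 1.97 in seedlings, so a shoot or seedling value of a few reads rests on fewer separate observations than its number says. Green-tissue markers summed to 40.2 to 140 TPM (transcript share scaled to a fixed library total) in root libraries and to at least 30433 TPM in shoot libraries. Root markers summed to at least 184 TPM in root libraries and to at most 2.29 TPM in shoot libraries, apart from 8.95 TPM in tpst-1 shoot replicate 4. Replicate 1 of the tpst-1 shoots stood apart, with a mean correlation of 0.938 to the rest of its group, against 0.955 to 0.972 for every other shoot library. TPST transcript was not lost in the libraries labelled tpst-1 (6.70 ± 1.59 TPM in shoots, against 8.55 ± 0.605 TPM in wild-type shoots, SD, n = 4 each), and PSYR3 was higher in tpst/psyr1,2,3 roots (60.5 ± 3.49 TPM, against 19.0 ± 0.906 TPM in tpst-1 roots, n = 3 each), while PSYR1 and PSYR2 were lower there (0.402 and 2.37 TPM, against 1.04 and 6.27 TPM in tpst-1 roots). TPST transcript therefore does not check the tpst-1 labels, and the groups are named as labelled.

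One short stretch of coding sequence tells the 2 classes apart and is shown to identify the members. In invertases of this family the conserved cysteine of the catalytic-site motif is followed by a proline in cell-wall enzymes and by a valine in vacuolar enzymes. The codon after that cysteine codon is in capitals in the 45 bases read from the TAIR10.1 genome, 5′ to 3′ on the coding strand.
CWINV1: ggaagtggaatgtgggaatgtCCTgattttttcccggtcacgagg
CWINV2: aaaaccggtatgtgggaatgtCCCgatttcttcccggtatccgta
CWINV3: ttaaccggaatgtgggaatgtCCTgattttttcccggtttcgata
CWINV4: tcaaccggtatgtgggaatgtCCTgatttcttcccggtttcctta
CWINV5: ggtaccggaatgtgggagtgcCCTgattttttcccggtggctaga
CWINV6: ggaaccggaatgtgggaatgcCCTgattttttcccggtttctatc
AT1G62660: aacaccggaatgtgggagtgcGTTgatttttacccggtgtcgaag
VI2: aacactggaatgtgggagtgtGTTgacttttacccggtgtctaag
All 6 CWINV genes carried a CCN codon there, and both vacuolar genes carried GTT. These stretches lie at chr3:4534676-4534720 (minus strand) for CWINV1, chr3:19508282-19508326 (minus) for CWINV2, chr1:20567553-20567597 (plus) for CWINV3, chr2:15176265-15176309 (minus) for CWINV4, chr3:4529678-4529722 (minus) for CWINV5, chr5:3840479-3840523 (plus) for CWINV6, chr1:23202179-23202223 (plus) for AT1G62660 and chr1:4156104-4156148 (plus) for VI2. Over the whole coding sequence, identity was highest between AT1G62660 and VI2 (80.5%), then between CWINV2 and CWINV4 (77.6%) and between CWINV1 and CWINV5 (75.3%).

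CWINV5 and CWINV1 are tandem neighbours on the minus strand of chromosome 3, with 2048 bases and no protein-coding gene between them. The 300 bases before the annotated start of each are shown because these neighbours behaved differently in the root libraries. The letters TTGAC, the core of the W-box bound by WRKY transcription factors, are in capitals on either strand.
CWINV5: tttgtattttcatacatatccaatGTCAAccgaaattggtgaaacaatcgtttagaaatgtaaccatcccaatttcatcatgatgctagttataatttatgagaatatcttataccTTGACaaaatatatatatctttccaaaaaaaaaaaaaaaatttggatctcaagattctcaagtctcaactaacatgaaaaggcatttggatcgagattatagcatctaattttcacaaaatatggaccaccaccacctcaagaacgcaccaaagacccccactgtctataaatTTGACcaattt
CWINV1: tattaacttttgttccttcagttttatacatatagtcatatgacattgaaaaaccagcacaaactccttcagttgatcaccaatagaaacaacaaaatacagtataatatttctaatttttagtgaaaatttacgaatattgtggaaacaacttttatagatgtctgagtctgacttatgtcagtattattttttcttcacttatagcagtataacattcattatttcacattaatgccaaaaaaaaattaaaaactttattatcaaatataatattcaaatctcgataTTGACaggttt
The windows are chr3:4530714-4531013 and chr3:4535915-4536214 (minus strand, TAIR10.1). The CWINV5 window held TTGAC at 276, 184 and 11 bases before the start and the CWINV1 window held it at 11 bases before the start. On both strands, 6 of the 8 member windows and 50.4% of all 27438 promoter windows of this length held a match. The G-box letters CACGTG were found in 0 of the 8 windows and in 7.09% of all windows.

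In roots, 2 genes gave most invertase transcript. AT1G62660 reached 285, 271 and 280 TPM in roots of tpst/psyr1,2,3, 269, 266 and 238 TPM in tpst-1 roots given PSY5, and 238, 216 and 243 TPM in tpst-1 roots. CWINV1 reached 133, 130 and 144 TPM in roots of tpst/psyr1,2,3, 144, 123 and 125 TPM in tpst-1 roots given PSY5, and 135, 127 and 144 TPM in tpst-1 roots. The CWINV1 values of the 3 root groups overlapped fully, whereas AT1G62660 was higher in every tpst/psyr1,2,3 root library than in any tpst-1 root library. VI2 ranked next among the members in roots, followed by CWINV3 and CWINV6, except in tpst-1 roots, where CWINV5 stood above both.

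CWINV5 was high in tpst-1 roots and near 0 in the other root groups. Its level was 0.397, 0.200 and 0.188 TPM in roots of tpst/psyr1,2,3, 0.196, 0.182 and 0.429 TPM in tpst-1 roots given PSY5, and 10.3, 10.0 and 11.4 TPM in tpst-1 roots. The 3 tpst-1 root libraries therefore lay far above the other 6, which rested on 1 to 3 reads each. In summed reads, PSY5-treated roots had 5 and tpst-1 roots had 167, which after scaling to the library totals is 36.2-fold lower with PSY5 (95% interval 15.2 to 113, counting error only). The tpst/psyr1,2,3 roots had 4 reads, 41.4-fold lower than tpst-1 roots (95% interval 15.9 to 154). The fitted log2 fold change was -5.04 ± 0.34 (SE) for PSY5-treated over tpst-1 roots and -5.23 ± 0.36 for tpst/psyr1,2,3 over tpst-1 roots. Both comparisons share the tpst-1 root libraries. The intervals allow neither for spread between libraries nor for the choice of CWINV5 by these same differences.

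A high CWINV5 level was not seen in any other group of tpst-1 plants. The gene was at 0.441, 0.807, 0.278 and 0.164 TPM in tpst-1 shoots and at 0.00, 0.00, 0.00 and 0.214 TPM in wild-type shoots, and its highest value outside tpst-1 roots was 1.33 TPM, in 1 tpst/psyr1,2,3 shoot library. Untreated tpst-1 seedlings, which include roots, gave 0.00, 0.192 and 0.00 TPM. Root markers were present in those seedlings, at a sum of 46.9 to 56.3 TPM, against 184 to 215 TPM in tpst-1 roots. CWINV5 passed the filter on low values (at least 1 TPM in at least 3 libraries) in roots only, through the tpst-1 libraries, so among the genes tested in roots it had to differ.

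Root and green-tissue markers also differed between the root groups, and their part in the CWINV5 result was not tested. All 5 root markers were detected in every root group, and their sum was 297 to 330 TPM in tpst/psyr1,2,3 roots, 289 to 296 TPM in PSY5-treated roots and 184 to 215 TPM in tpst-1 roots. The 6 green-tissue markers summed to 54.8 to 140 TPM in tpst/psyr1,2,3 roots, to 40.2 to 42.9 TPM in PSY5-treated roots and to 50.2 to 73.1 TPM in tpst-1 roots, and 1 of them was at 0 in all tpst-1 root libraries. The share of reads on gene rows whose identifiers begin with ENSRNA was 0.0883% to 0.0983% in tpst/psyr1,2,3 roots, 0.0954% to 0.112% in PSY5-treated roots and 0.125% to 0.259% in tpst-1 roots, so the tpst-1 libraries stood apart in it too.

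The CWINV5 row overlaps by 285 bases with NAP1;4, a gene on the opposite strand, and no source used here says whether reads were assigned by strand. NAP1;4 was at 17.5, 12.1 and 15.4 TPM in tpst/psyr1,2,3 roots, at 13.7, 13.2 and 14.6 TPM in PSY5-treated roots and at 11.1, 10.8 and 8.74 TPM in tpst-1 roots. It was thus lowest in tpst-1 roots, without overlap, where CWINV5 was highest. Of the 1988 words of 31 bases in the annotated CWINV5 gene, 11 also occur in CWINV1 on the same strand (0.553%). On the opposite strand 255 occur in NAP1;4, and 13.4% are shared on either strand. The part of these shared words in the CWINV5 and NAP1;4 values was not tested.

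**Figure D1:**
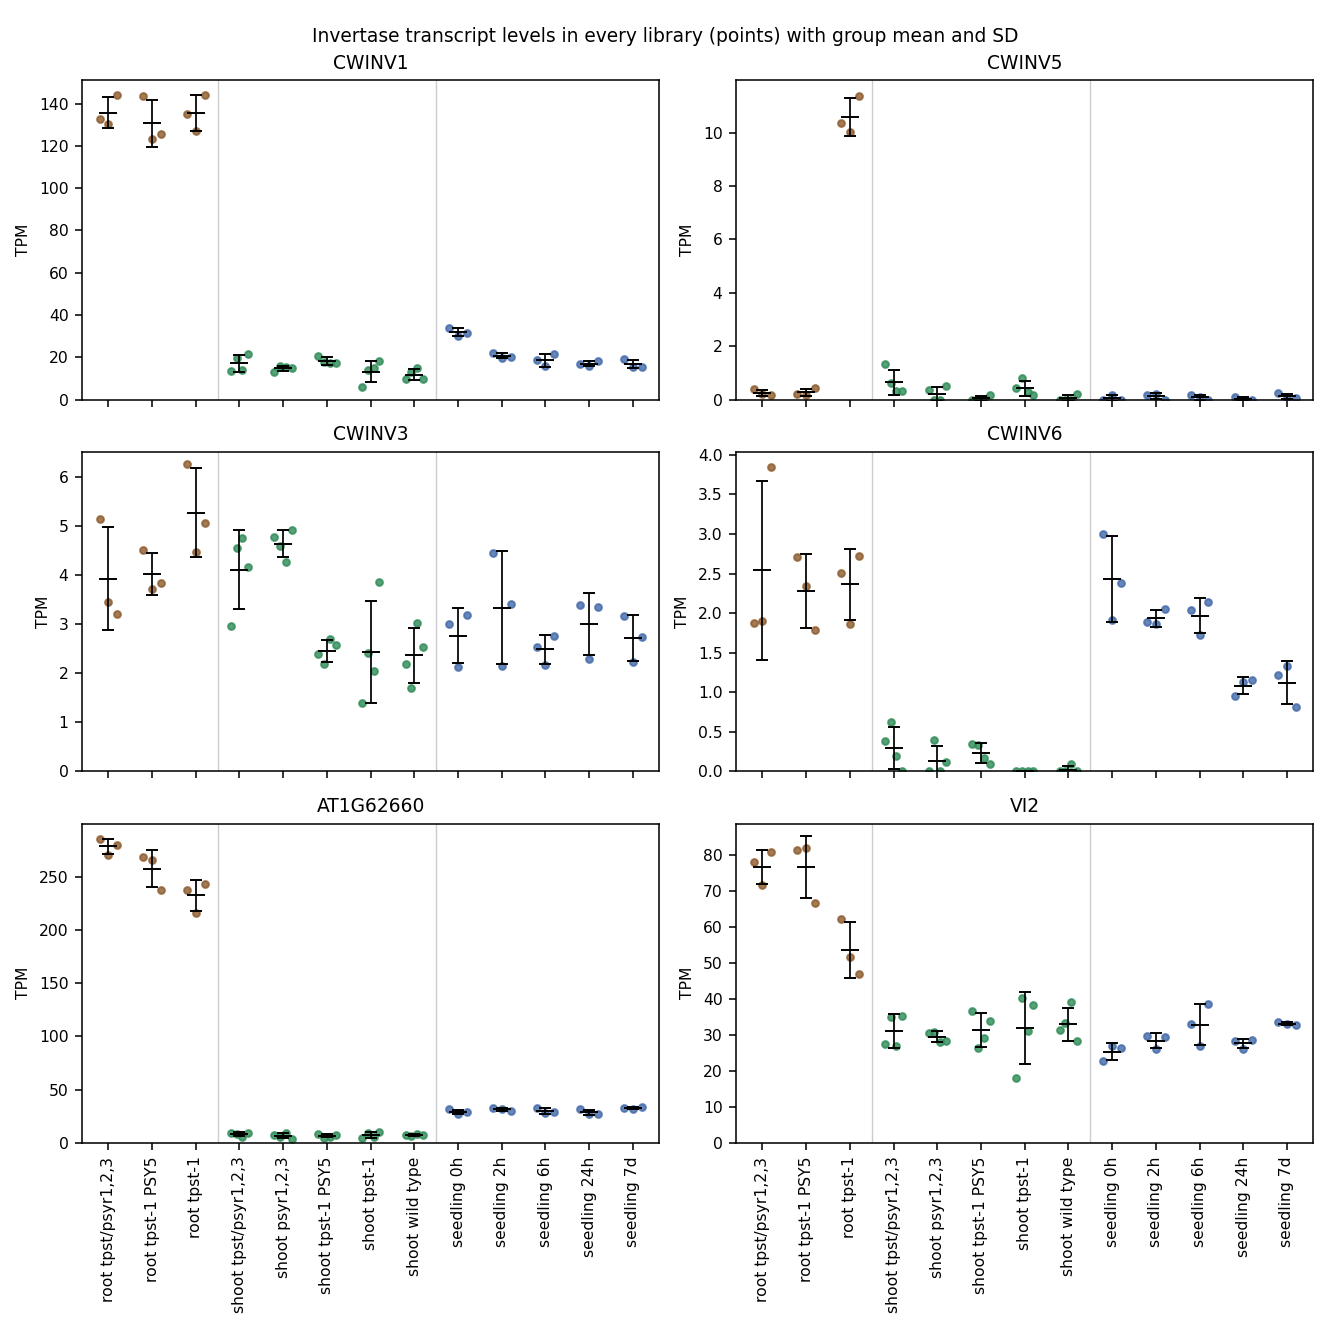
Transcript level in TPM (y axis, linear, each panel with its own scale) of 6 invertase genes in the 13 groups (x axis), with 1 point per library and the mean and SD in black. CWINV5 is near 10 TPM in tpst-1 roots and at most 1.33 TPM in every library of the other groups, CWINV1 and AT1G62660 are highest in roots, and CWINV1 and CWINV6 are lower in seedlings at 24h and 7d than at 0h.

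Among the other root members, both vacuolar genes sat slightly higher where CWINV5 was low. VI2 was at 78.1, 71.6 and 80.7 TPM in roots of tpst/psyr1,2,3, at 81.3, 82.1 and 66.6 TPM in PSY5-treated roots and at 62.3, 51.8 and 46.9 TPM in tpst-1 roots, and neither of the first 2 groups overlapped with tpst-1 roots. Its log2 fold change was 0.54 ± 0.09 (SE) for PSY5-treated over tpst-1 roots and 0.47 ± 0.09 for tpst/psyr1,2,3 over tpst-1 roots, and AT1G62660 gave 0.19 ± 0.06 and 0.25 ± 0.06 in those comparisons. CWINV1 gave -0.04 ± 0.07 and -0.03 ± 0.07, CWINV3 gave -0.37 ± 0.22 and -0.50 ± 0.23, and CWINV6 gave 0.02 ± 0.34 and 0.06 ± 0.34. With edgeR's quasi-likelihood test and Benjamini-Hochberg adjustment, 3 of the 6 members tested were called (adjusted p below 0.05) with PSY5, 2 higher and 1 lower, where 15.2% of all genes were called, 7.52% higher and 7.69% lower. In tpst/psyr1,2,3 roots 3 of 6 were called, again 2 higher and 1 lower, where 15.4% of all genes were, 7.9% higher and 7.5% lower. These contrasts chose the family and CWINV5 had to be among the calls, so the counts are printed beside the all-gene shares only and nothing is read from them. CWINV2, with no read in any of the 9 root libraries (a limit of 3 reads over all 9), and CWINV4, at most 0.341 TPM in roots, were too low to test.

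Roots of tpst/psyr1,2,3 and PSY5-treated roots of tpst-1 were compared directly to ask whether removing the receptors and supplying the peptide left different invertase levels. No difference was detected: edgeR called 0 of the 5 members tested besides CWINV5, against 0.536% of all genes (0.316% higher and 0.22% lower). At an unadjusted p below 0.05 there were 0 members, against 2000 of all 19958 genes tested. DESeq2 and limma also called 0 members, where DESeq2 called 118 of all genes and limma on log2(TPM + 1) called 17. AT1G62660 was at 271 TPM in its lowest tpst/psyr1,2,3 library and at 269 TPM in its highest PSY5-treated library, and was not called (edgeR, adjusted p = 0.806). CWINV5, given as a description because it was chosen for being low in both groups and passed the filter through tpst-1 roots alone, was at 0.262 ± 0.117 TPM in roots of tpst/psyr1,2,3 and at 0.269 ± 0.139 TPM in roots given PSY5 (SD, n = 3 each), with a log2 fold change of -0.19 ± 0.76 (SE), a wide error at so few reads. The better measured members gave narrower values, 0.00 ± 0.07 for CWINV1, 0.06 ± 0.06 for AT1G62660 and -0.08 ± 0.09 for VI2.

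AT1G62660 and CWINV1 were far higher in roots than in shoots. AT1G62660 stood at 216 to 285 TPM in root libraries and at 3.64 to 9.90 TPM in shoot libraries, and CWINV1 at 123 to 144 TPM in roots and 6.09 to 21.6 TPM in shoots. In tpst-1 plants the log2 fold change of roots over shoots was 4.23 ± 0.20 (SE) for AT1G62660 (edgeR, adjusted p = 3.07e-17) and 2.59 ± 0.16 for CWINV1 (adjusted p = 1.19e-14). CWINV6, with 38.1 reads in tpst-1 roots and none in the 4 tpst-1 shoot libraries, was at least 33.4-fold higher in roots, taking 3 steps of the shoot reads as the floor. CWINV5, described above, gave 3.69 ± 0.66. With edgeR, CWINV1 and AT1G62660 were called higher in roots, and VI2 and CWINV3 were not called. Of all genes, 66.7% were called, 31.4% higher and 35.3% lower. With limma on log2(TPM + 1), 72.6% of all calls were higher, against 47.1% in the count fit. CWINV5 is left out of these calls because its high tpst-1 root libraries chose the family. CWINV6 is left out because it passed the filter in roots only (at most 0.618 TPM in shoots), so it had to be higher there.

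VI2 and CWINV3 showed no such gap after scaling of the counts. VI2 was at 62.3, 51.8 and 46.9 TPM in tpst-1 roots and at 18.0, 40.3, 31.1 and 38.3 TPM in tpst-1 shoots, without overlap, yet its log2 fold change was -0.10 ± 0.13 (edgeR, adjusted p = 0.485). With limma on log2(TPM + 1) it was called, at 0.78 (adjusted p = 0.000500). The difference lies in the scale: the median of all genes was at -0.08 in the count fit and at 0.71 in TPM. CWINV3, at 6.27, 4.48 and 5.07 TPM in tpst-1 roots and 1.39, 2.41, 2.05 and 3.87 TPM in tpst-1 shoots, gave 0.27 ± 0.23 (adjusted p = 0.300) and 0.91 with limma on TPM (adjusted p = 0.000118), and without tpst-1 shoot replicate 4 it was called in the count fit as well (0.53, adjusted p = 0.0337). Tissue, sequencing run and library kit cannot be told apart, since no source used here says which libraries were made with which of the 2 kits.

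The vacuolar pair differed in make-up between the tissues, in a TPM ratio within each library that no scaling between libraries touches. Tissue, sequencing run and library kit cannot be told apart in this ratio either. AT1G62660 gave 76.4% to 83.8% of the summed vacuolar TPM in root libraries, 11.4% to 25.7% in shoot libraries and 42.8% to 58.1% in seedling libraries, and these ranges did not overlap. In tpst-1 plants the log2 ratio of AT1G62660 to VI2 was 2.12 ± 0.23 in roots (SD, n = 3) and -2.14 ± 0.24 in shoots (n = 4), with p = 0.0571 in a two-sided exact permutation test, the smallest p that 3 against 4 libraries can give. The cell-wall class kept CWINV1 as its main transcript in all tissues, with 87.5% to 95.9% of the class in roots, 70.6% to 87.7% in shoots and 77.3% to 87.7% in seedlings. Within roots that share was 94.7% to 95.9% in tpst/psyr1,2,3, 95.1% to 95.4% with PSY5 and 87.5% to 88.5% in tpst-1, where CWINV5 held part of the class.

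**Figure D2:**
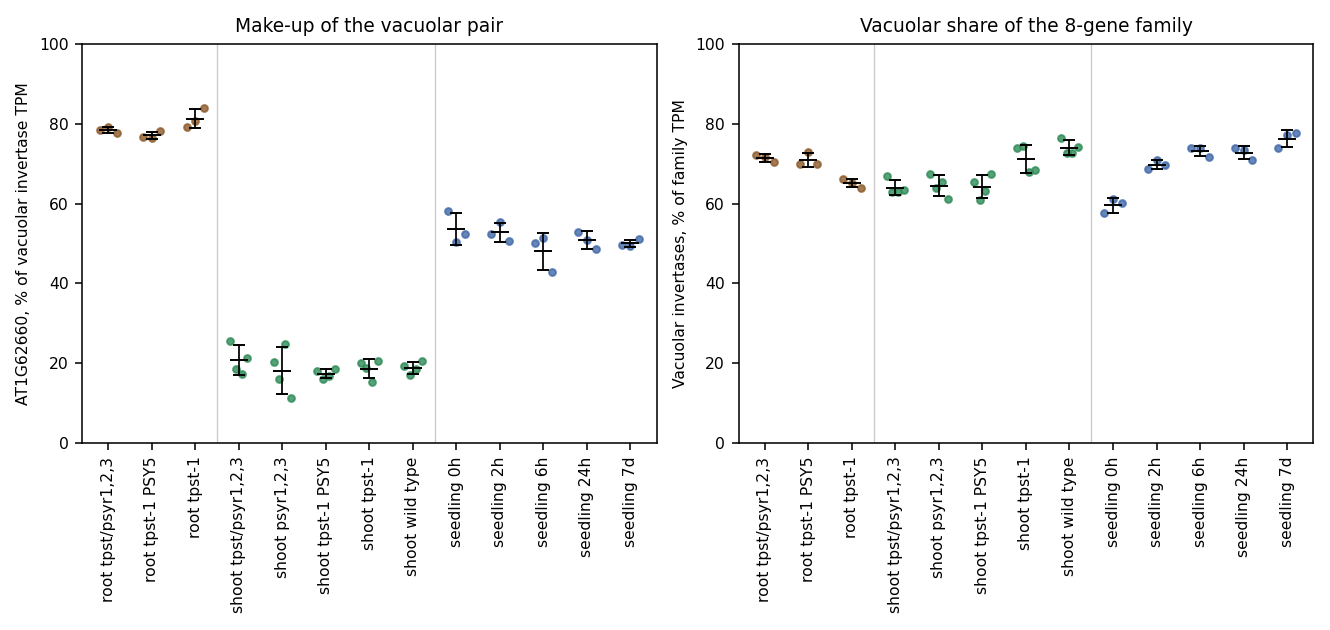
Left, AT1G62660 as a percentage of the TPM of both vacuolar invertase genes, and right, the vacuolar genes as a percentage of the TPM of all 8 genes (y axes), in the 13 groups (x axis), with 1 point per library and the mean and SD in black. AT1G62660 holds 76.4% to 83.8% of the pair in roots and 11.4% to 25.7% in shoots, and the vacuolar share of the family is 73.8% to 77.7% in seedlings after 7d of PSY5, against 57.5% to 61.1% at 0h.

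In seedlings, CWINV1 was lower than at 0 h at each time of PSY5 exposure, from 2 h on, with no untreated seedlings at those times to compare. CWINV1 was at 33.9, 30.2 and 31.5 TPM at 0 h, at 22.2, 19.7 and 20.4 TPM at 2 h, at 18.7, 15.7 and 21.8 TPM at 6 h, at 16.7, 16.1 and 18.3 TPM at 24 h and at 19.1, 15.6 and 15.6 TPM after 7 d. Every treated library lay below every 0 h library. The log2 fold change over 0 h was -0.66 ± 0.09 (SE) at 2 h (edgeR, adjusted p = 2.66e-05), -0.81 ± 0.09 at 6 h (adjusted p = 1.87e-06), -0.92 ± 0.10 at 24 h (adjusted p = 3.33e-07) and -0.92 ± 0.09 at 7 d (adjusted p = 3.23e-07). All 4 calls held in each alternative run. The 4 comparisons share the 0 h libraries.

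CWINV6, a fructan-cleaving member of the class, fell later. It was at 2.99, 1.91 and 2.38 TPM at 0 h, at 1.89, 1.86 and 2.05 TPM at 2 h, at 2.04, 1.73 and 2.14 TPM at 6 h, at 0.956, 1.13 and 1.16 TPM at 24 h and at 1.22, 1.33 and 0.816 TPM after 7 d. The 24 h and 7 d libraries lay below all 0 h libraries, while those of 2 h and 6 h overlapped with them. Its log2 fold change was -1.17 ± 0.25 at 24 h (edgeR, adjusted p = 0.00234) and -1.18 ± 0.25 at 7 d (adjusted p = 0.00134), against -0.38 ± 0.24 at 2 h (adjusted p = 0.353) and -0.41 ± 0.24 at 6 h (adjusted p = 0.286). Both calls held in every alternative run.

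VI2 moved the other way by a smaller amount. It was at 22.7, 27.0 and 26.5 TPM at 0 h, at 33.1, 27.0 and 38.7 TPM at 6 h and at 33.7, 33.1 and 32.8 TPM after 7 d, with all 7 d libraries above all 0 h libraries. The log2 fold change was 0.33 ± 0.09 at 6 h (edgeR, adjusted p = 0.0179) and 0.37 ± 0.09 at 7 d (adjusted p = 0.00596), against 0.12 ± 0.09 at 2 h (adjusted p = 0.505) and 0.09 ± 0.09 at 24 h (adjusted p = 0.603). The call at 6 h was lost with limma (adjusted p = 0.0570) and without 0 h replicate 1 (0.118), 6 h replicate 1 (0.0541) or 6 h replicate 3 (0.122), and the call at 7 d was lost without 0 h replicate 1 (0.0592).

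AT1G62660 and CWINV3 were not called at any time. AT1G62660 ranged from 27.2 to 34.1 TPM and CWINV3 from 2.13 to 4.45 TPM over the 15 seedling libraries. At 7 d all AT1G62660 values lay above those of 0 h, with a log2 fold change of 0.16 ± 0.07 (edgeR, adjusted p = 0.140). In all, edgeR called 1 of the 5 members tested at 2 h, lower, where 12.5% of all genes were called (4.53% higher, 8.01% lower). At 6 h it called 1 higher and 1 lower, where 14.5% of all genes were called (5.89% higher, 8.56% lower). At 24 h it called 2 lower, where 14.1% were called (5.43% higher, 8.63% lower), and at 7 d 1 higher and 2 lower, where 19.4% were called (8.53% higher, 10.8% lower). The summed vacuolar share of the family was 59.6% ± 1.86 at 0 h, 69.7% ± 1.16 at 2 h, 73.1% ± 1.25 at 6 h, 72.7% ± 1.56 at 24 h and 76.2% ± 2.14 at 7 d (SD, n = 3 each). The 7 d and 0 h libraries did not overlap in this share, at p = 0.1 in a two-sided exact permutation test, the smallest p that 3 against 3 can give. Root markers summed to 46.9 to 56.3 TPM at 0 h, 50.0 to 53.1 TPM at 2 h, 44.3 to 48.1 TPM at 6 h, 53.2 to 60.3 TPM at 24 h and 48.9 to 70.2 TPM at 7 d, and overlapped with 0 h at each time. Green-tissue markers summed to 21378 to 23840 TPM at 0 h, 23801 to 24546 TPM at 2 h, 23579 to 25360 TPM at 6 h, 24265 to 26842 TPM at 24 h and 26737 to 28468 TPM at 7 d, above all 0 h libraries at 24 h and 7 d. The part of either list in the CWINV1, CWINV6 and VI2 results was not tested.

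**Figure D3:**
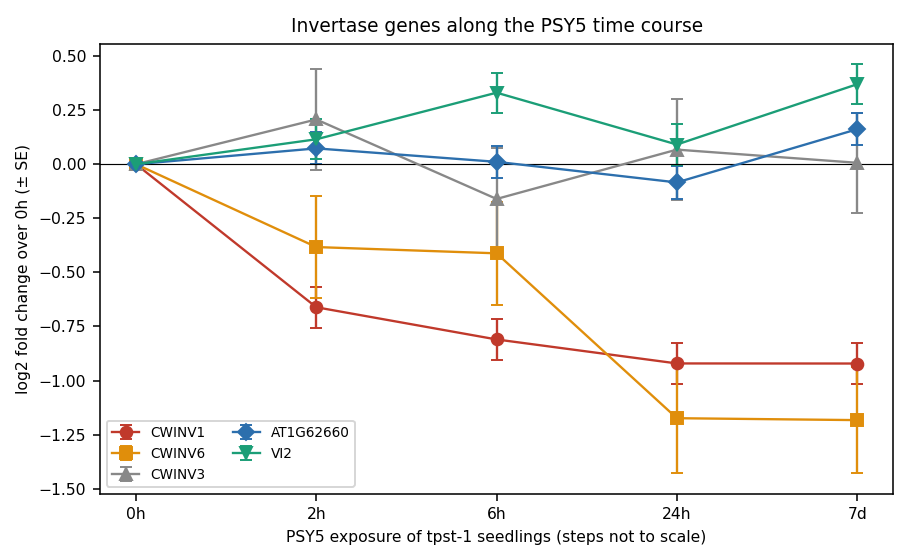
Log2 fold change over 0h with its SE (y axis) of 5 invertase genes in tpst-1 seedlings along exposure to 1 uM PSY5 (x axis, steps not to scale), from the fit over all seedling libraries (n = 3 each). CWINV1 is at -0.66 at 2h and -0.92 at 7d, CWINV6 reaches -1.17 at 24h, VI2 is at 0.37 at 7d, and CWINV3 and AT1G62660 stay within 0.21 of 0.

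In shoots, edgeR called no invertase gene in any of 6 comparisons. Tested were CWINV1, CWINV3, AT1G62660 and VI2. Of all genes, 9.21% were called for tpst-1 over wild type (7.07% higher, 2.14% lower), 1.82% for psyr1,2,3 over wild type (0.893% higher, 0.927% lower) and 7.04% for tpst/psyr1,2,3 over wild type (3.6% higher, 3.45% lower). The shares were 5.16% for PSY5-treated over untreated tpst-1 (1.32% higher, 3.84% lower), 15% for tpst/psyr1,2,3 over tpst-1 (5.18% higher, 9.78% lower) and 0.458% for tpst/psyr1,2,3 over psyr1,2,3 (0.169% higher, 0.29% lower). The split depended on the scale: with limma on log2(TPM + 1), 85.9% of the calls were higher for psyr1,2,3 over wild type (49.1% in the count fit), 88.7% for tpst/psyr1,2,3 over wild type (51.1%), 54.1% for PSY5-treated over untreated tpst-1 (25.5%) and 88.0% for tpst/psyr1,2,3 over tpst-1 (34.6%). In the order of the 6 comparisons above, 0, 2, 2, 0, 1 and 0 members had an unadjusted p below 0.05. So did 4788, 2998, 4327, 4437, 6203 and 1683 of all 20723 genes tested. DESeq2 called 0, 1, 0, 0, 1 and 0 members, and 2315, 784, 2025, 1621, 3754 and 264 of all genes. With limma on log2(TPM + 1) the member counts were the same, and 1052, 503, 1746, 577, 6820 and 59 of all genes were called.

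CWINV3 had the largest of these shoot differences. It was at 4.77, 4.60, 4.28 and 4.93 TPM in psyr1,2,3 shoots and at 2.20, 1.71, 3.03 and 2.54 TPM in wild-type shoots, with no overlap. Its log2 fold change was 0.73 ± 0.21 (SE, edgeR, adjusted p = 0.0788), just outside the threshold. It was called with limma on log2(TPM + 1) (adjusted p = 0.0391), with DESeq2 (0.0347) and when those 2 groups were fitted alone (0.0354). In TPM the median of all genes lay at 0.15 here, below the 0.76 of CWINV3. Other measures separated the same groups without overlap: green-tissue markers summed to 35445 to 37739 TPM in psyr1,2,3 shoots and 40296 to 41877 TPM in wild-type shoots, and organelle reads made up 1.38% to 1.68% in psyr1,2,3 and 2.07% to 2.67% in wild type. Reads on ENSRNA rows made up 0.280% to 0.396% in psyr1,2,3 and 0.510% to 1.02% in wild type. Their part in the CWINV3 values was not tested. In tpst/psyr1,2,3 shoots CWINV3 was at 2.96, 4.56, 4.76 and 4.16 TPM, overlapping with wild type only through its lowest library, with a log2 fold change over wild type of 0.53 ± 0.21 (edgeR, adjusted p = 0.143) and over psyr1,2,3 of -0.21 ± 0.21 (adjusted p = 0.928). Over tpst-1 shoots, at 1.39, 2.41, 2.05 and 3.87 TPM, it was 0.38 ± 0.21 (adjusted p = 0.223), and 0.64 (adjusted p = 0.0338) without tpst-1 shoot replicate 4, the library with root-marker transcript.

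VI2 was at 27.4, 35.0, 26.8 and 35.4 TPM in tpst/psyr1,2,3 shoots and at 18.0, 40.3, 31.1 and 38.3 TPM in tpst-1 shoots. The groups overlapped in TPM, and the log2 fold change in the count fit was -0.36 ± 0.12 (edgeR, adjusted p = 0.0534). DESeq2 called it (adjusted p = 0.0301), as did edgeR without tpst-1 replicate 1 (0.0173), tpst-1 replicate 3 (0.0486) or tpst/psyr1,2,3 replicate 4 (0.0468), whereas limma on log2(TPM + 1) gave 0.02 (adjusted p = 0.954). In this comparison the median of all genes was at -0.01 in the count fit and at 0.33 in TPM, so the direction of VI2 depended on the scale. Organelle reads made up 1.35% to 1.87% in tpst/psyr1,2,3 shoots and 2.31% to 4.45% in tpst-1 shoots, and their part was not tested. Over wild-type shoots VI2 gave -0.31 ± 0.12 in psyr1,2,3 (edgeR, adjusted p = 0.217) and -0.32 ± 0.12 in tpst/psyr1,2,3 (adjusted p = 0.130), overlapping in TPM. With limma on log2(TPM + 1) these were -0.15 and -0.08, and neither was called in any alternative run.

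PSY5 did not detectably change the invertase genes that passed the filter in tpst-1 shoots. CWINV1 was at 20.8, 17.6, 17.5 and 17.1 TPM in PSY5-treated shoots and at 6.09, 13.8, 15.02 and 18.2 TPM in tpst-1 shoots, overlapping through 1 tpst-1 library (log2 fold change 0.30 ± 0.16, edgeR, adjusted p = 0.299). That tpst-1 library was replicate 4, the library with root-marker transcript, whose part in the overlap was not tested. CWINV1 was not called in any alternative run of edgeR, DESeq2 or limma (adjusted p 0.112 to 0.642). VI2 gave -0.21 ± 0.12 (edgeR, adjusted p = 0.334), AT1G62660 -0.24 ± 0.21 (adjusted p = 0.542) and CWINV3 -0.18 ± 0.21 (adjusted p = 0.657). Whether the change of a member with PSY5 differed between roots, shoots and seedlings was not tested. CWINV6 was below the filter in shoots but had reads in all 4 PSY5-treated shoot libraries (0.351, 0.330, 0.171 and 0.0919 TPM) and in none of the 4 tpst-1 shoot libraries, at 2.0 to 7.8 reads each. CWINV5, also below the filter in shoots, had 42.7 summed reads in tpst-1 shoots and 3.9 in PSY5-treated tpst-1 shoots. It had 47.0 in tpst/psyr1,2,3 shoots, which were thus not low in it as roots of that genotype were. These CWINV5 differences were not tested. CWINV2 was detected in 3 of the 44 libraries and CWINV4 in 11, at most 0.341 TPM, and neither was tested in any tissue.

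**Figure D4:**
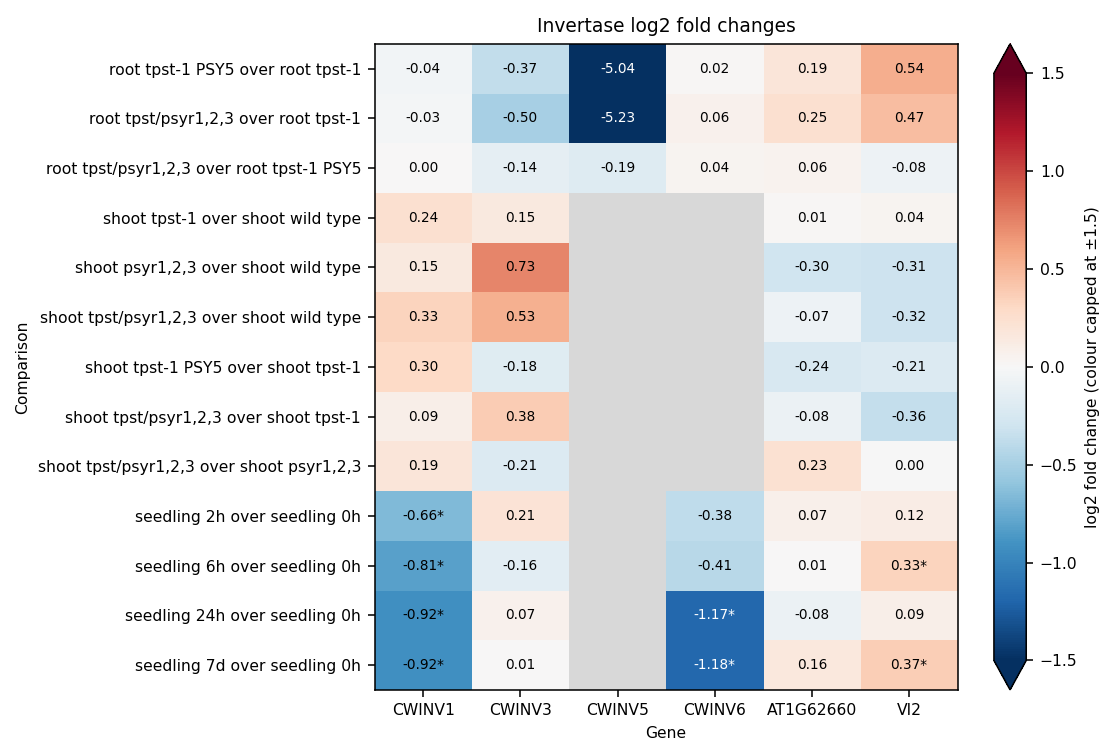
Log2 fold changes (numbers, with the colour capped at 1.5 either way) of 6 invertase genes (x axis) in 13 comparisons (y axis), grey where a gene was below the filter. An asterisk marks an adjusted p below 0.05 (edgeR) and is not drawn in the first 2 comparisons, which chose the family. CWINV5 is at -5.04 and -5.23 in those, and all asterisks lie in the seedling comparisons.

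The invertase inhibitors C/VIF1 and C/VIF2, proteins that bind and block cell-wall and vacuolar invertases, were followed as the regulators of the family. C/VIF2 was at 48.6 to 54.1 TPM in seedlings at 2 h and at 25.5 to 40.3 TPM at 0 h, with a log2 fold change of 0.51 ± 0.16 (edgeR, adjusted p = 0.0357), and was not called at 6 h, 24 h or 7 d. C/VIF1 was at 7.72 to 12.7 TPM at 7 d and at 5.46 to 7.30 TPM at 0 h (0.75 ± 0.26, adjusted p = 0.0483). Neither call was stable: over the alternatives the adjusted p ranged from 0.00773 to 0.188 for C/VIF2, lost with limma and without 0 h replicate 3, 2 h replicate 2 or 2 h replicate 3, and from 0.0272 to 0.189 for C/VIF1, lost with limma and without 0 h replicate 1, 0 h replicate 3, 7 d replicate 1 or 7 d replicate 2. In tpst/psyr1,2,3 roots C/VIF1 was at 14.0 to 16.7 TPM, against 7.76 to 10.4 TPM in tpst-1 roots, without overlap, at 0.72 ± 0.25 (edgeR, adjusted p = 0.0560). Neither inhibitor was called between shoot groups. C/VIF1 was higher, without overlap in TPM, in PSY5-treated than in tpst-1 shoots (0.17 ± 0.16, edgeR, adjusted p = 0.560). The same held in psyr1,2,3 and tpst/psyr1,2,3 over wild type. It held for C/VIF2 in tpst/psyr1,2,3 over psyr1,2,3 (0.39 ± 0.15, adjusted p = 0.392). Both were called lower in tpst-1 roots than in tpst-1 shoots. C/VIF1 gave -1.82 ± 0.22 (edgeR, adjusted p = 1.84e-08) and C/VIF2 -3.14 ± 0.21 (1.01e-13). Tissue, run and kit cannot be told apart there.

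**Figure D5:**
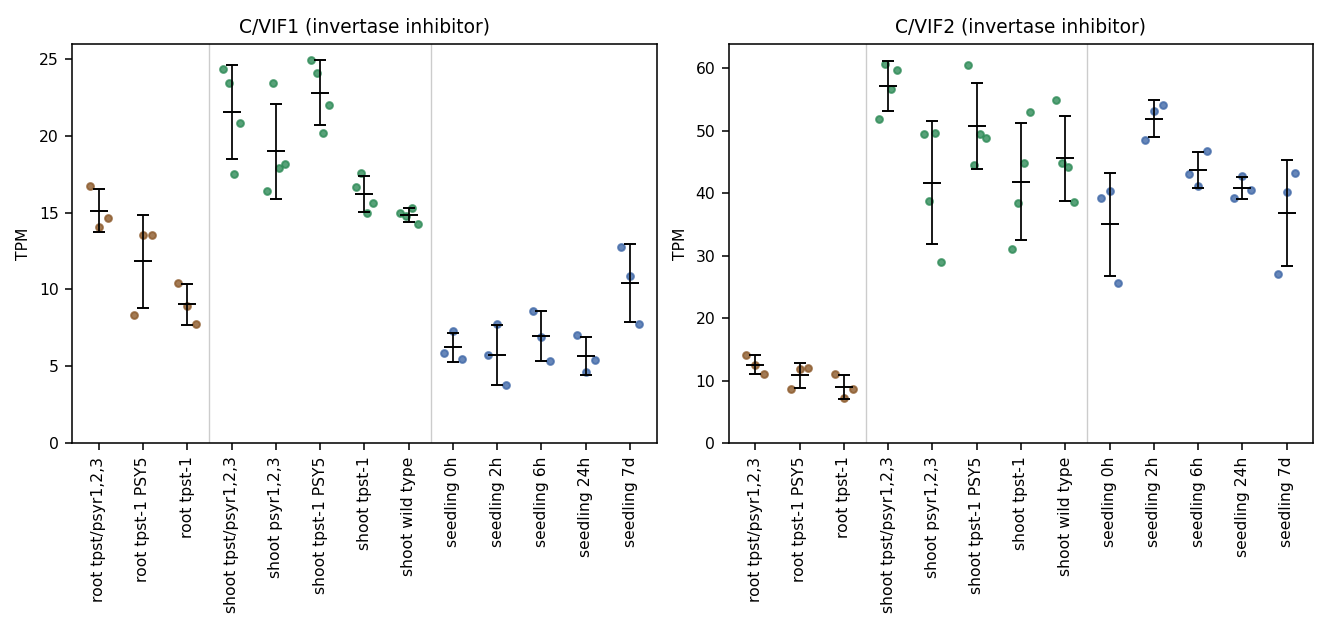
Transcript level in TPM (y axis) of the invertase inhibitor genes C/VIF1 and C/VIF2 in the 13 groups (x axis), with 1 point per library and the mean and SD in black. C/VIF2 is between 48.6 and 54.1 TPM in seedlings at 2h and between 25.5 and 40.3 TPM at 0h, and C/VIF1 is between 14.0 and 16.7 TPM in tpst/psyr1,2,3 roots and between 7.76 and 10.4 TPM in tpst-1 roots.

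A list of 74 other sugar genes (neutral invertases, inhibitors, sucrose synthases, sucrose-phosphate synthases, sucrose and hexose transporters, SWEET exporters, hexokinases and fructokinases) gives the setting. In seedlings 47 of them were tested. At 2 h edgeR called 3 higher and 10 lower, 27.7% of those tested against 12.5% of all genes, and at 6 h 5 higher and 13 lower, 38.3% against 14.5%. At 24 h it called 6 higher and 13 lower, 40.4% against 14.1%, and at 7 d 10 higher and 15 lower, 53.2% against 19.4%. The list's median log2 fold change lay between -0.05 and 0.00 at each time, with that of all genes between 0.00 and 0.01. SUS4, a sucrose synthase, the other enzyme that splits sucrose, fell at each time, with log2 fold changes of -2.36 ± 0.30, -3.16 ± 0.32, -3.44 ± 0.33 and -2.81 ± 0.30 (edgeR, adjusted p at most 5.44e-06). Of the 5 sucrose synthases tested, 2 were called lower at 2 h, 6 h and 24 h, and 3 lower and 1 higher at 7 d. The sucrose transporter SUC1 fell by 0.93 at 2 h and 0.75 at 7 d on the log2 scale, and the hexose transporter STP1, which takes up the sugars that cell-wall invertase releases, fell by 1.00 and 0.87. SWEET13, a sucrose exporter, rose by 1.18 ± 0.24 at 2 h and 2.08 ± 0.22 at 7 d. Each of these 16 calls of the 4 genes held in every alternative run. CINV1, a neutral invertase of the cytosol, fell at 2 h, 6 h and 24 h (-0.35 ± 0.09, -0.35 ± 0.09 and -0.37 ± 0.09, adjusted p at most 0.00769), with the 2 h and 6 h calls lost with limma on log2(TPM + 1) (adjusted p = 0.0857 and 0.0592).

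In roots, 42 of the list were tested and 6 were called higher and 8 lower with PSY5, and 6 and 8 in tpst/psyr1,2,3, which is 33.3% of those tested each time, against all-gene shares of 15.2% and 15.4%. SWEET13 gave 1.83 ± 0.20 and 1.65 ± 0.21, SWEET14 1.42 ± 0.16 and 1.46 ± 0.17, SUS4 -0.67 ± 0.11 and -0.62 ± 0.11 and SUC1 -0.61 ± 0.10 and -0.64 ± 0.10 for PSY5-treated and tpst/psyr1,2,3 roots over tpst-1 roots (edgeR, adjusted p at most 0.000287), with the tpst-1 libraries shared. The sucrose synthases did not all move as SUS4 did. SUS3 was called higher with PSY5 (0.37 ± 0.09, edgeR, adjusted p = 0.00785), with adjusted p up to 0.0702 over the alternatives. In tpst/psyr1,2,3 roots 0 sucrose synthases were called higher. The list's median was -0.03 and 0.03, close to the all-gene median of 0.00 in both. Between tpst/psyr1,2,3 and PSY5-treated roots, SWEET2, a vacuolar glucose carrier, was the 1 list member called (0.67 ± 0.15, edgeR, adjusted p = 0.0356), a call lost with limma and without any 1 of the 6 libraries compared (adjusted p 0.0650 to 0.155).

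In shoots, 51 of the list were tested in each of the 6 comparisons. For tpst/psyr1,2,3, 7 were higher and 7 lower over wild type (27.5%, against 7.04% of all genes). Over tpst-1 shoots 7 were higher and 4 lower (21.6% against 15%), and over psyr1,2,3 shoots 1 was lower (1.96% against 0.458%). In psyr1,2,3 over wild type, 2 were higher and 2 lower (7.84% against 1.82%). With PSY5 in tpst-1 shoots, 3 were higher and 2 lower (9.80% against 5.16%). In tpst-1 over wild-type shoots, 6 were higher and 1 lower, 13.7% of those tested, where 9.21% of all genes were called and most of those were higher too (7.07% higher, 2.14% lower). SWEET13 rose by 2.22 ± 0.37 (edgeR, adjusted p = 0.000364) and SUC1 by 0.89 ± 0.14 (adjusted p = 0.000266), and CINV1 fell by 0.38 on the log2 scale (adjusted p = 0.0138), a call lost with limma (0.0731), with these groups alone (0.185) and without wild-type shoot replicate 3 (0.0643). The SWEET13 and SUC1 calls held in every alternative run. The sucrose synthase SUS3 rose by 1.58 ± 0.27 (edgeR, adjusted p = 0.000432), with adjusted p at most 0.0245 over the alternatives. A/N-InvC, another neutral invertase, went the other way from CINV1. It rose by 0.70 ± 0.22 (edgeR, adjusted p = 0.0482), with adjusted p up to 0.378 over the alternatives.

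The genes whose group means over the 13 groups were most like a member's, by Pearson's r of log2(TPM + 1), are named as a description. KAT3, PPI2 and Hop3 were closest to CWINV1 (0.995, 0.994 and 0.994), and MES15, SHV2 and AT1G48690 were closest to AT1G62660 (0.999, 0.998 and 0.998), SHV2, also called COBL9, being 1 of the 5 root markers. AT2G25150, AT4G32780 and GAMMA-TIP, a vacuolar aquaporin, were closest to VI2 (0.988, 0.987 and 0.986). For CWINV3 they were AT3G02220, STRS1 and PRORP2 (0.938, 0.924 and 0.918). For CWINV5 the closest genes tied at 0.977 and were listed at 0 in tpst/psyr1,2,3 and in PSY5-treated roots, a value set by the tpst-1 root group alone, so none is named. The groups share tissue, run and depth, which these values follow too.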

How the data were processed

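Gene-level tables of 44 libraries were used. Per the file headers, each deposited table gives a length, an effective length, TPM and an estimated (expected) read count per gene. The genome build was TAIR10, per the submitters' processing notes, and the program that quantified the reads is named in no source used here. The deposited TPM values, normalized by the authors for length and library, are printed as levels. The deposited estimated counts, rounded to integers, went into edgeR 4.0.16 (quasi-likelihood F test, TMM factors, R 4.3.3) in one fit per tissue, or over roots and shoots together for the tissue comparison, with group as the only term. Genes with at least 1 TPM in at least 3 libraries of a tissue (4 in shoots) were tested, p-values were adjusted by Benjamini-Hochberg over all of them, and adjusted p below 0.05 was a call. The scripts were tested on simulated data. Alternatives were DESeq2 1.42.0, limma 3.58.1 on log2(TPM + 1) and log2(TPM + 0.1), other size factors, no filter, a replicate block, the compared groups alone, each library left out in turn and, chosen after seeing the data, counts divided by the step of low values. Intervals and floors cover counting error only, at 95% and 3 steps of reads.

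The members, the marker and sugar lists and the tests were chosen with earlier results of these data known. The text names all members, TPST and the PSYR genes as a check of the labels, both inhibitors, at most 2 sugar genes per class and comparison with the smallest adjusted p, and the 3 genes most like each member of at least 5 TPM, except for CWINV5, where they tied. Gene names and sequences came from the RefSeq annotation of TAIR10.1, in which 32548 loci had an entry. Sequences were read by locus from that assembly and no coordinates were converted.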

Additional observations from a re-analysis of the deposited data

Results flagged for a closer look

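CWINV1 stood at 20.8 TPM in replicate 1 of the PSY5-treated tpst-1 shoots, above the 17.1 to 17.6 TPM of the other 3 libraries of its group, a gap of 0.856 of the group's range, above Dixon's critical value at the 95% level. It was the 1 such value among 20 shoot groups of members with a mean of at least 1 TPM, where chance gives about 1 in 20. Groups of 3 libraries were not tested.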

How the results depend on the processing

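The counts of members called, CWINV5 included in roots, kept their size (within 1.5 times) in 98 alternative fits and moved in 10, and kept it in 90 refits without 1 library and moved in 7. These tallies include the 2 root comparisons against tpst-1, which chose the family. They also include roots over shoots, with the CWINV5 and CWINV6 calls left out above. Nothing is read from those parts of the tallies. In psyr1,2,3 over wild-type shoots, 1 member (CWINV3) was called instead of 0 with limma on log2(TPM + 1), limma on log2(TPM + 0.1), DESeq2 and the compared groups alone. In tpst/psyr1,2,3 over tpst-1 shoots, 1 was called instead of 0 with no filter (CWINV6), limma on either scale (CWINV3) and DESeq2 (VI2), and 0 to 1 without 1 library. In 6 h over 0 h seedlings, 1 was called instead of 2 with limma on either scale, and 1 to 2 without 1 library. VI2 in tpst-1 roots over shoots, -0.10 in the count fit, turned to 0.78 with limma on log2(TPM + 1) and 0.80 on log2(TPM + 0.1). Counts divided by the step of low values, tried after seeing the data, moved no count of members. Over all genes, calls ranged over the alternatives from 1871 to 3277 with PSY5 in roots (3035 as reported), 1874 to 3335 in tpst/psyr1,2,3 over tpst-1 roots (3073) and 16 to 253 in tpst/psyr1,2,3 over PSY5-treated roots (107). In shoots they ranged from 805 to 2315 for tpst-1 over wild type (1908), 113 to 1031 for psyr1,2,3 over wild type (377), 845 to 2673 for tpst/psyr1,2,3 over wild type (1459), 377 to 1655 for PSY5-treated over untreated tpst-1 (1069), 1065 to 6820 for tpst/psyr1,2,3 over tpst-1 (3100) and 28 to 389 for tpst/psyr1,2,3 over psyr1,2,3 (95). The causes were not tested.

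With the replicate number as a block, the members called stayed at 0 in tpst/psyr1,2,3 over PSY5-treated roots and 0 in all 6 shoot comparisons. In seedlings they stayed at 1, 2, 2 and 3. The counts of the 2 root comparisons against tpst-1 stayed at 3 each, but CWINV5 had to be among them, so nothing is read from these. Libraries with the same number did not deviate together (median correlation 0.0130 in roots, 0.00173 in shoots and -0.0146 in seedlings), so the numbers do not pair the samples, and 5 of 9, 6 of 20 and 2 of 15 libraries correlated best with their own number. The block was not run for roots over shoots. Depth limits CWINV2 and CWINV4 throughout, CWINV5 outside tpst-1 roots and CWINV6 in shoots.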
